A study of Mus musculus with 24 samples.

Results

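The comparison described here asked what added depletion of Keap1 did to myoblasts already depleted of Fem1b. It set 3 libraries of the group siFem1b/Keap1, which received the siRNA against Fem1b and the siRNA against Keap1, against 3 libraries of the group siFem1b, which received the siRNA against Fem1b alone. These are 6 of the 12 libraries of the series, chosen by their labels, and each was sequenced in 2 runs that were added up. The others, 3 libraries of siKeap1 and 3 of siCont, received the siRNA against Keap1 alone or a non-targeting siRNA. All groups are C2C12 cells, a line of mouse myoblasts able to form multinucleated muscle fibres, kept undifferentiated and below confluence and harvested 48 h after siRNA treatment. Poly(A)-selected RNA was sequenced. Each target was depleted with a single siRNA. The labels give neither the dose of siRNA, nor whether its total was matched between groups, nor whether the libraries of a group came from separate cultures, so p-values measure only how these libraries vary among themselves, and part of that spread may be technical.

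KEAP1 is the substrate adaptor of a cullin-3 ubiquitin ligase that binds the transcription factor NRF2, encoded by Nfe2l2, and marks it for degradation. When KEAP1 is modified by electrophiles or oxidants, or is lost, NRF2 accumulates and with small MAF proteins binds antioxidant response elements of genes for glutathione synthesis, thioredoxin recycling, NADPH production, detoxification and iron storage. FEM1B is the substrate adaptor of a cullin-2 ubiquitin ligase that takes part in the response to reductive stress, a shortage of oxidants, and has FNIP1 as a known substrate. Myoblasts leave the cell cycle and switch on myogenin and then the sarcomere genes when they differentiate.

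The siRNAs are shown since they define the groups and since their guide strands can also pair with other transcripts. Capitals mark guide bases 2 to 8, the seed, and in the sense strand the bases that pair with it.
siKeap1 sense: gcgccaauguuGACACGGa
siKeap1 guide: uCCGUGUCaacauuggcgc
siFem1b sense: gaagaucagugCAGAAUUa
siFem1b guide: uAAUUCUGcacugaucuuc
The siKeap1 sense sequence matched coding sequence in exon 4 of 6 of Keap1, at chr9:21231850-21231868 on the minus strand (GRCm38). An antisense gene, Gm16754, has an exon over the same bases, and whether strand was kept is not given in the sources used here. Without strand, reads of Gm16754 and Keap1 cannot be told apart over the bases they share. The siFem1b sense sequence matched coding sequence in exon 2 of 2 of Fem1b, at chr9:62796575-62796593 on the minus strand.

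Keap1 had 9.57, 9.19 and 9.38 CPM in siFem1b/Keap1, against 56.7, 57.5 and 63.3 CPM in siFem1b (CPM, counts scaled to 1000000 per library). The groups did not overlap, and Keap1 was 6.30-fold lower in siFem1b/Keap1 (log2 fold change -2.66, SE 0.0710, adjusted p = 2.44e-15; edgeR quasi-likelihood test, Benjamini-Hochberg over all genes tested). Fem1b had 12.4, 14.2 and 11.6 CPM in siFem1b/Keap1, against 12.8, 13.6 and 13.3 CPM in siFem1b, values that overlap (log2 fold change -0.055, SE 0.0692, adjusted p = 0.562). In groups without its siRNA Fem1b had 102, 106 and 97.8 CPM in siKeap1, against 95.2, 94.1 and 101 CPM in siCont, so Fem1b was depleted in both groups compared. The 6 libraries held 31890336 to 39926031 counts each and 14584 genes were tested. Among genes with at least 5 CPM on average, 65.7% of the variance of log CPM over all 12 libraries lay on the first principal component. The second held 25.9%. The first set the groups with the Fem1b siRNA apart from the others, and the second those with the Keap1 siRNA. Defining myoblast markers were present in all 6 libraries: Myod1 had 63.3, 67.2 and 67.0 CPM in siFem1b/Keap1, against 114, 108 and 119 CPM in siFem1b, and Pax3 was the single marker of 12 below the filter on low counts. Of the 11 tested, 2 rose and 6 fell.

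Genes of NRF2 and detoxification were higher in siFem1b/Keap1, and genes of muscle, mitosis and the ATF4 stress response were lower. Of 14584 genes, 3104 (21.3%) were higher and 3181 (21.8%) lower at an adjusted p under 0.05. The changes were small for most of them: 825 were at least 1.5-fold higher and 540 at least 1.5-fold lower, and 381 and 196 passed 2-fold. The median log2 fold change over all genes tested was 0.0052, and for 50.8% of genes the siFem1b/Keap1 and siFem1b libraries did not overlap.

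**Figure D1:**
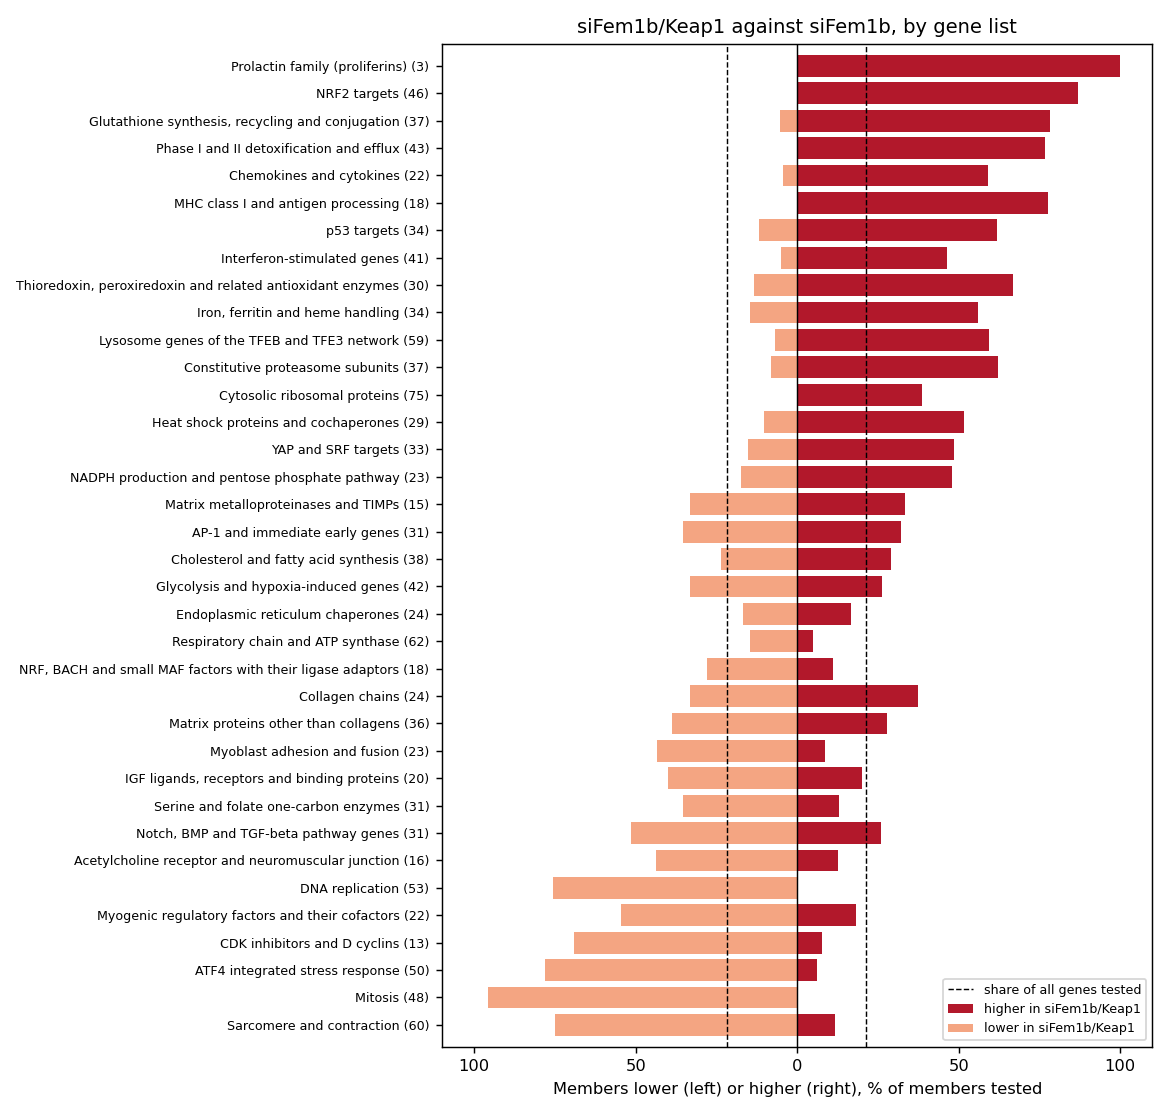
For each of 36 gene lists, the share of members tested that was higher (dark bars, right) or lower (light bars, left) in siFem1b/Keap1 than in siFem1b at an adjusted p under 0.05, ordered by median log2 fold change, with the number tested in brackets. The dashed lines mark the shares over all genes, 21.3% higher and 21.8% lower; NRF2 targets reach 40 of 46 higher and mitosis genes 46 of 48 lower.

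Protein-coding genes with at least 5 CPM on average over the 6 libraries were ranked by their change. The 12 largest rises were those of Gsta1, Prl2c2, Gsta4, Sh3tc1, Ugt1a6a, Mmp10, Nqo1, Prl2c3, Aldh3a1, Gstm1, Cck and Mal. They encode glutathione S-transferases (Gsta1, Gsta4, Gstm1), other detoxifying enzymes (Ugt1a6a, Nqo1, Aldh3a1), proliferins of the prolactin family (Prl2c2, Prl2c3), the matrix metalloproteinase MMP10 and the peptide hormone cholecystokinin (Cck), among others. The 12 largest falls included those of Rbm24, Actc1, Myog, Igf2, Myh3, Keap1, Mylpf, Tmem158, Tnnt1, Hfe2 and Gfra1. Rbm24, which encodes a muscle RNA-binding protein, had 0.730, 0.860 and 0.511 CPM in siFem1b/Keap1, against 11.1, 11 and 11.8 CPM in siFem1b. Tnnt1 encodes slow troponin T and had 3.99, 4.09 and 3.79 CPM in siFem1b/Keap1, against 13.3, 13.4 and 14.5 CPM in siFem1b, and Hfe2, which encodes hemojuvelin, a protein of muscle and liver, had 3.70, 2.89 and 2.50 CPM in siFem1b/Keap1, against 9.51, 11.3 and 10.9 CPM in siFem1b. The rule that picked these genes asked for groups that do not overlap. Because the average covered both groups, a gene low in 1 group could pass through the other. Ugt1a6a, for example, averaged 1.58 CPM in siFem1b, so such fold changes rest on low levels on 1 side.

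The factor itself was lower. Nfe2l2 had 51.4, 51.0 and 51.6 CPM in siFem1b/Keap1, against 67.4, 65.3 and 67.7 CPM in siFem1b, without overlap (log2 fold change -0.38, SE 0.0367, adjusted p = 1.21e-07). Among 18 genes for NRF and BACH factors, small MAF proteins and ligase adaptors, 2 rose and 5 fell. Those that fell include Nfe2l2 and Keap1, the target of the added siRNA. Shares over all genes tested were 21.3% higher and 21.8% lower, so the falls are near the share of all genes. The small MAF genes Mafk and Maff were the ones that rose, with 46.0 CPM in siFem1b/Keap1 and 31.9 in siFem1b for Mafk (log2 fold change 0.53, SE 0.0455, adjusted p = 2.79e-08) and 54.8 CPM in siFem1b/Keap1 and 38.5 in siFem1b for Maff (log2 fold change 0.51, SE 0.0457, adjusted p = 4.94e-08).

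NRF2 targets rose almost throughout. Of 46 tested, 40 rose and 0 fell, their median log2 fold change was 0.80, and 18 rose at least 2-fold. Nqo1, the NAD(P)H quinone reductase that serves as the standard readout of NRF2, had 153, 152 and 152 CPM in siFem1b/Keap1, against 27.9, 28.2 and 29.2 CPM in siFem1b. The groups were far apart, with a 5.36-fold difference (log2 fold change 2.42, SE 0.0447, adjusted p = 7.38e-18). The 6 members that did not pass the test were Slc7a11, Taldo1, Gsta3, Akr1b8, Ugdh and Epha2, with log2 fold changes between -0.043 (Ugdh) and 0.44 (Gsta3, under 1 CPM in both groups). Fech, the last enzyme of heme synthesis, was the weakest rise (log2 fold change 0.10, SE 0.0397, adjusted p = 0.0399) and did not pass in 13 of 18 alternative settings.

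**Figure D2:**
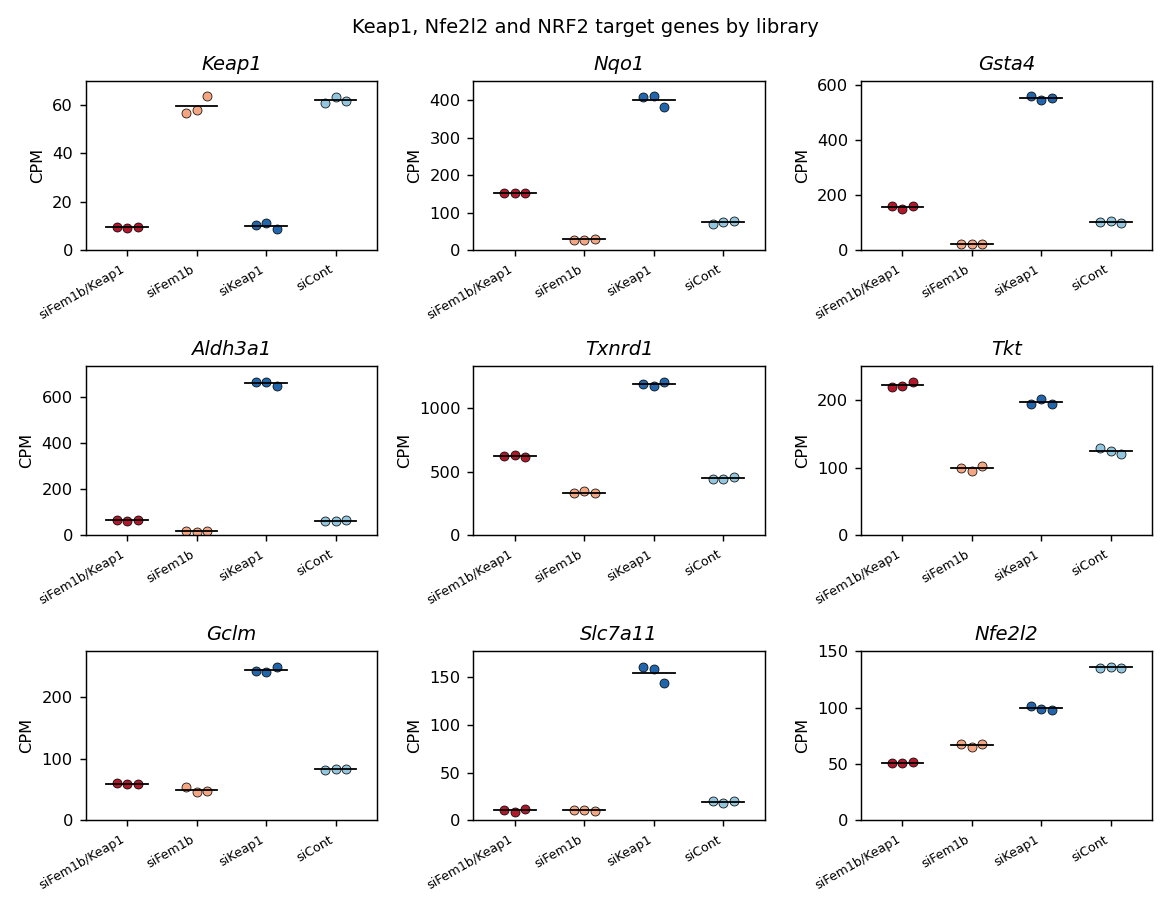
CPM of Keap1, 7 NRF2 target genes and Nfe2l2 in each of the 12 libraries (points), with the mean of each group (line); each vertical axis is linear and starts at 0. Nqo1, Gsta4, Aldh3a1, Txnrd1 and Tkt stand higher in siFem1b/Keap1 than in siFem1b, Gclm by less, and Slc7a11 overlaps between them while it is high in siKeap1.

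Glutathione genes rose by very different amounts. Of the conjugating enzymes, Gsta4, which conjugates lipid aldehydes, had 159, 148 and 160.0 CPM in siFem1b/Keap1, against 23.8, 20.9 and 22.8 CPM in siFem1b, a 6.92-fold rise (log2 fold change 2.79, SE 0.0481, adjusted p = 4.64e-18). Gstm1 had 107, 109 and 110.2 CPM in siFem1b/Keap1, against 29.8, 26.2 and 28.8 CPM in siFem1b (3.85-fold; adjusted p = 1.58e-15). Gsta1 had 42.1, 36.0 and 42.0 CPM in siFem1b/Keap1, against 1.57, 1.67 and 1.71 CPM in siFem1b (24.2-fold; adjusted p = 4.64e-18), but Gsta1 and Gsta2 have near-identical sequences, so how reads were shared between them is uncertain. Other conjugating enzymes rose less, with Gstm2 at 2.03-fold and Gstp1 at 1.66-fold. Among the genes of synthesis, Gclc, the catalytic subunit of glutamate-cysteine ligase, had 88.9, 90.5 and 94.8 CPM in siFem1b/Keap1, against 42.9, 40.3 and 40.4 CPM in siFem1b (2.22-fold; adjusted p = 8.68e-13). Its modifier subunit Gclm had 60.1, 59.6 and 59.4 CPM in siFem1b/Keap1, against 53.4, 46.0 and 47.9 CPM in siFem1b, a smaller rise without overlap (1.21-fold; log2 fold change 0.28, SE 0.0467, adjusted p = 7.95e-05). Slc7a11, the cystine transporter subunit that supplies cysteine, had 11.3, 9.17 and 11.9 CPM in siFem1b/Keap1, against 10.4, 11.3 and 9.44 CPM in siFem1b, which overlap (log2 fold change 0.054, SE 0.0977, adjusted p = 0.702). Gsr, glutathione reductase, averaged 135 ± 3.34 CPM in siFem1b/Keap1, against 100.2 ± 6.16 CPM in siFem1b (SD, n = 3 each; adjusted p = 8.12e-07). In all, 29 of 37 glutathione genes rose and 2 fell (median 0.55). This list and those of thioredoxin, NADPH, detoxification and iron genes share members with the NRF2 targets, such as Gclc, Txnrd1, G6pdx, Ptgr1 and Blvrb. Their counts are therefore not separate results.

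In the thioredoxin and peroxiredoxin list 20 of 30 rose and 4 fell (median 0.22). Txnrd1, thioredoxin reductase, had 624, 629.8 and 617 CPM in siFem1b/Keap1, against 328, 346 and 333 CPM in siFem1b (log2 fold change 0.89, SE 0.0350, adjusted p = 5.77e-13). Catalase, Cat, rose 2.33-fold, the sulfiredoxin gene Srxn1 1.64-fold, the glutaredoxin gene Glrx 1.73-fold and the peroxiredoxin gene Prdx6 1.57-fold. Among 23 genes of NADPH production, 11 rose and 4 fell, and 7 rose with the first run alone. G6pdx, which opens the pentose phosphate pathway, had 383, 392 and 399.6 CPM in siFem1b/Keap1, against 175, 169.5 and 169 CPM in siFem1b, well apart (log2 fold change 1.20, SE 0.0343, adjusted p = 8.02e-15). Pgd, the next oxidative enzyme, rose 1.98-fold, Tkt, transketolase of the non-oxidative branch, 2.24-fold, and Me1, malic enzyme, 1.61-fold. Taldo1, transaldolase, had 126, 124 and 130.3 CPM in siFem1b/Keap1, against 127, 119 and 122 CPM in siFem1b, which overlap (adjusted p = 0.365). The members that fell include the mitochondrial folate enzymes Aldh1l2 and Mthfd2, which are also ATF4 targets.

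Of 43 genes of detoxification and efflux, 33 rose and 0 fell (median 0.48). Aldh3a1, an aldehyde dehydrogenase, had 64.7, 62.4 and 67.0 CPM in siFem1b/Keap1, against 16.4, 15.1 and 17.2 CPM in siFem1b (3.98-fold; log2 fold change 1.99, SE 0.0481, adjusted p = 5.13e-16). The carbonyl reductase gene Cbr3 rose 3.14-fold, the aldehyde oxidase gene Aox1 2.65-fold, the prostaglandin reductase gene Ptgr1 2.28-fold, and the efflux pump gene Abcc4 1.73-fold. Among 34 iron and heme genes 19 rose and 5 fell. The ferritin genes Fth1 and Ftl1 rose 1.35-fold and 1.79-fold, though Ftl1 has many processed copies whose reads may be shared with it. The heme transporter gene Slc48a1 rose 2.00-fold, the biliverdin reductase gene Blvrb 2.47-fold, and Slc40a1, which encodes the iron exporter ferroportin, had 3.78, 4.43 and 3.58 CPM in siFem1b/Keap1, against 1.18, 1.70 and 1.29 CPM in siFem1b (2.84-fold; adjusted p = 3.82e-07). Hmox1, heme oxygenase 1, had 35.9, 35.0 and 38.5 CPM in siFem1b/Keap1, against 31.8, 29.3 and 29.5 CPM in siFem1b, a small rise (log2 fold change 0.27, SE 0.0501, adjusted p = 0.000234).

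Promoters of these genes were searched for the core of the antioxidant response element, TGACNNNGC, on both strands, from 250 bases before to 50 after the start (RefSeq, GRCm38.p6). A match was found in 12 of the 37 NRF2 targets with a window (32.4%), in 16.3% of the 10825 tested genes with one, and in 12.4% of all 32851 windows. Among genes at least 2-fold higher 16.7% held one, and among genes at least 2-fold lower 12.6%. The windows of 6 targets that rose are shown on the strand of the gene, with the match in capitals; a GCNNNGTCA reads as the motif on the other strand.
Prdx1: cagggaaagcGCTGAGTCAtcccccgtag
G6pdx: aggcgggtcaGCTCAGTCAaagcacacgc
Me1: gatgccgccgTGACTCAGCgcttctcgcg
Txnrd1: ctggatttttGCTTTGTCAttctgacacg
Gclm: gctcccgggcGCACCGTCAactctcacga
Mgst1: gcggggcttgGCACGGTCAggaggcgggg
They lie at chr4:116685456-116685484 (plus strand, Prdx1), chrX:74428919-74428947 (minus, G6pdx), chr9:86695902-86695930 (minus, Me1), chr10:82859104-82859132 (plus, Txnrd1), chr3:122245413-122245441 (plus, Gclm) and chr6:138140461-138140489 (plus, Mgst1). Prdx1, a peroxiredoxin, rose 1.47-fold and Mgst1, a microsomal glutathione transferase, 5.53-fold. Gsta3 and Ugdh, targets that were not called, held matches too. The match is a description of these letters, not of NRF2 binding, which was not measured here.

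Muscle differentiation genes were lower in siFem1b/Keap1. Myog, which encodes myogenin, had 5.22, 5.47 and 4.21 CPM in siFem1b/Keap1, against 57.2, 58.4 and 62.2 CPM in siFem1b, an 11.9-fold lower level (log2 fold change -3.57, SE 0.0834, adjusted p = 3.31e-16). Myod1, which specifies the lineage, fell less, 1.73-fold (adjusted p = 3.58e-10), and the homeobox gene Six4 fell 1.38-fold. Of 22 myogenic factors and cofactors, 12 fell and 4 rose (median -0.28).

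Of 60 sarcomere genes 45 fell and 7 rose, with the lowest median of the 36 lists plotted, -0.90. Many of them are expressed at low levels, and with at least 5 CPM required in 3 libraries 24 fell. That setting tested 10549 genes in all, so members below that level were not counted. Embryonic myosin heavy chain, Myh3, had 2.61, 2.34 and 2.47 CPM in siFem1b/Keap1, against 16.4, 17.6 and 18.9 CPM in siFem1b (7.13-fold lower; log2 fold change -2.83, SE 0.104, adjusted p = 2.37e-13). Cardiac alpha-actin, Actc1, had 1.46, 1.25 and 1.11 CPM in siFem1b/Keap1, against 15.1, 17.1 and 16.6 CPM in siFem1b (12.7-fold lower). The fast light chain Mylpf had 5.53, 5.03 and 4.27 CPM in siFem1b/Keap1, against 25.7, 26.3 and 26.9 CPM in siFem1b (5.30-fold lower), Myl1 fell 2.93-fold and the nebulin gene Neb 3.02-fold. The rule that picked Myh3, Actc1 and Mylpf asked for groups that do not overlap. Acta1, skeletal alpha-actin, went the other way with 127, 129 and 142 CPM in siFem1b/Keap1, against 64.5, 62.9 and 65.9 CPM in siFem1b (log2 fold change 1.04, SE 0.0543, adjusted p = 3.04e-11, or 2.06-fold higher). Fewer differentiating cells and less RNA of these genes per cell cannot be told apart in bulk RNA.

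Of 10 myotube markers 9 fell and 1, Acta1, rose, with a median of -1.91. Their summed level without Acta1 was 26.2, 25.5 and 22.4 CPM in siFem1b/Keap1, against 131.5, 137.9 and 145.3 CPM in siFem1b. It was 4.1, 4.7 and 3.9 CPM in siKeap1, against 11, 10.4 and 9.0 CPM in siCont, so the siFem1b/Keap1 libraries stood below siFem1b and above siCont. Myomaker, Mymk, the membrane protein that drives fusion, had 7.07, 6.75 and 6.17 CPM in siFem1b/Keap1, against 17.6, 19 and 18.7 CPM in siFem1b (2.76-fold lower). M-cadherin, Cdh15, fell 1.52-fold and N-cadherin, Cdh2, 1.33-fold, and 10 of 23 adhesion and fusion genes fell while 2 rose. In the neuromuscular list 7 of 16 fell and 2 rose. Chrng, the fetal acetylcholine receptor subunit, fell 2.71-fold, whereas Musk, its organising kinase, rose 1.21-fold.

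**Figure D3:**
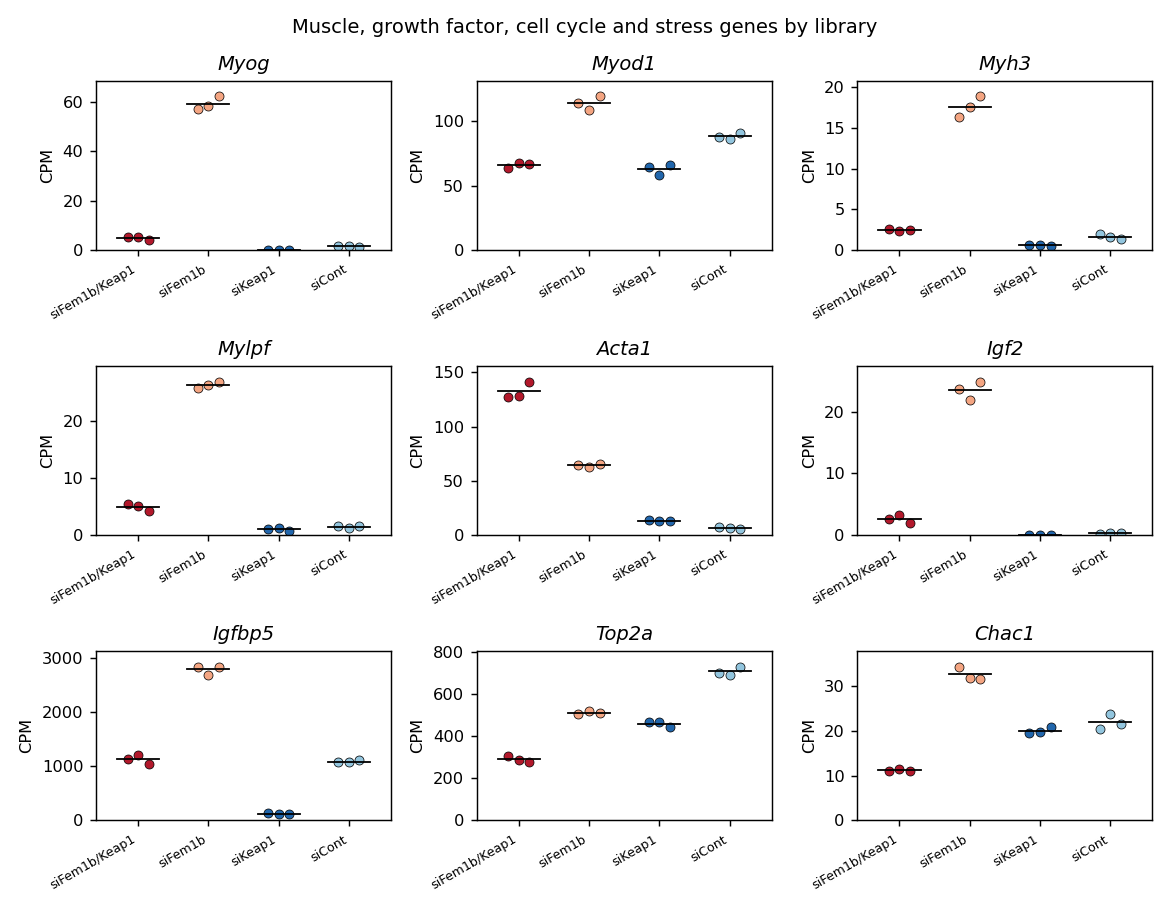
CPM of muscle genes (Myog, Myod1, Myh3, Mylpf, Acta1), growth factor genes (Igf2, Igfbp5), the mitosis gene Top2a and the ATF4 target Chac1 in each of the 12 libraries (points) with group means (lines); axes are linear from 0. All but Acta1 stand lower in siFem1b/Keap1 than in siFem1b with no overlap, and Acta1 stands higher.

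Among 20 genes of the insulin-like growth factor system, 8 fell and 4 rose. The ligand gene Igf2, which supports myoblast differentiation, had 2.69, 3.23 and 1.99 CPM in siFem1b/Keap1, against 23.7, 21.9 and 24.9 CPM in siFem1b (8.84-fold lower; log2 fold change -3.14, SE 0.123, adjusted p = 6.28e-13). Igfbp5, a binding protein of the muscle lineage, had 1134, 1203 and 1048 CPM in siFem1b/Keap1, against 2842, 2694 and 2834 CPM in siFem1b (2.47-fold lower; adjusted p = 5.36e-11). The receptor gene Igf1r fell 1.33-fold, and Igfbp6 rose 1.71-fold.

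Proliferation genes fell as well. Of 48 mitosis genes 46 fell and 0 rose (median -0.50), and of 53 replication genes 40 fell and 0 rose (median -0.21). Top2a, topoisomerase II alpha, had 306, 286 and 278 CPM in siFem1b/Keap1, against 505, 518 and 509 CPM in siFem1b (1.76-fold lower; log2 fold change -0.81, SE 0.0405, adjusted p = 1.57e-11). The kinetochore gene Cenpf fell 1.75-fold, the cytokinesis gene Racgap1 1.62-fold, the checkpoint kinase gene Bub1b 1.5-fold and the spindle gene Tpx2 1.45-fold. Among replication genes Mcm10 fell 1.64-fold, the cyclin gene Ccne1 1.61-fold and the uracil glycosylase gene Ung, which also holds a seed match, 3.02-fold.

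Of 34 p53 targets 21 rose and 4 fell (median 0.29). The death receptor gene Tnfrsf10b rose 1.58-fold, the antiproliferative gene Btg2 1.66-fold and the polymerase gene Polk 1.52-fold. In the list of CDK inhibitors and D cyclins 9 of 13 fell and 1 rose. The member that rose was Cdkn1a, which encodes p21 and is also a p53 target, with 323, 339 and 339.6 CPM in siFem1b/Keap1, against 274, 273 and 268 CPM in siFem1b (1.23-fold; adjusted p = 1.98e-06). Cdkn1b, Cdkn2c and Cdkn2d, which encode other inhibitors, fell 1.26-fold, 1.37-fold and 1.56-fold, and the cyclin gene Ccnd2 fell 1.29-fold.

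Genes induced by ATF4, the transcription factor of the integrated stress response, were lower. Of 50 tested, 39 fell and 3 rose (median -0.37), and 37 to 40 fell over the 18 alternative settings. Chac1, an enzyme that degrades glutathione, had 11.1, 11.5 and 10.9 CPM in siFem1b/Keap1, against 34.3, 31.8 and 31.7 CPM in siFem1b (2.92-fold lower; log2 fold change -1.54, SE 0.0638, adjusted p = 1.13e-12). Slc7a5, a large neutral amino acid transporter, had 90.5, 88.1 and 89.1 CPM in siFem1b/Keap1, against 204, 214 and 209 CPM in siFem1b (2.34-fold lower; adjusted p = 1.14e-14). The mitochondrial folate enzymes Aldh1l2 and Mthfd2 fell 2.81-fold and 2.02-fold, and Pck2, mitochondrial phosphoenolpyruvate carboxykinase, fell 2.11-fold. In the overlapping list of serine and one-carbon enzymes 11 of 31 fell and 4 rose, with Psat1 down 1.56-fold and Shmt2 1.49-fold. The cytosolic enzyme gene Aldh1l1 went the other way (3.37-fold higher; 7.6 CPM in siFem1b/Keap1 and 2.26 in siFem1b).

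Lysosome genes of the TFEB and TFE3 network rose in 35 of 59 cases and fell in 4 (median 0.18). Gpnmb, a lysosomal glycoprotein, had 27.9, 28.6 and 27.9 CPM in siFem1b/Keap1, against 13.5, 13.9 and 13.6 CPM in siFem1b (2.06-fold; log2 fold change 1.04, SE 0.0633, adjusted p = 2.47e-10). Ctsd, cathepsin D, rose 1.46-fold, Gusb, beta-glucuronidase, 1.46-fold, the proton pump subunit gene Atp6v1h 1.56-fold and the autophagy gene Gabarapl1 1.62-fold.

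Of 41 interferon-stimulated genes 19 rose and 2 fell (median 0.22), and 13 to 20 rose over the alternative settings. Stat2, a factor of the interferon response, had 37.1, 39.1 and 40.0 CPM in siFem1b/Keap1, against 31.0, 30.4 and 31.8 CPM in siFem1b (log2 fold change 0.32, SE 0.0488, adjusted p = 3.4e-05), and the exonuclease gene Isg20 rose 1.82-fold. Of 18 genes of MHC class I and antigen processing 14 rose and 0 fell. Tapbp, tapasin, rose 1.41-fold, the transactivator gene Nlrc5 1.62-fold and H2-K1 1.46-fold, with the caution that classical H2 genes share sequence.

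Housekeeping machinery moved by small amounts. Of 37 proteasome subunit genes 23 rose and 3 fell (median 0.14), with Psma7 up 1.33-fold. Of 75 ribosomal protein genes 29 rose and 0 fell (median 0.13), a count that ran from 10 to 45 over the settings. It was 12 and 10 without replicate 1 or 3 of siFem1b/Keap1, and 14 without replicate 2 or 3 of siFem1b, and these genes have many processed copies. Of 29 heat shock genes 15 rose and 3 fell, with Hspb8 up 1.40-fold. Of 24 endoplasmic reticulum chaperones 4 rose and 4 fell, both shares below those of all genes. For 62 respiratory chain and ATP synthase genes 3 rose and 9 fell, shares below those of all genes.

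Of 42 glycolysis and hypoxia genes 11 rose and 14 fell. Slc2a1, the glucose transporter GLUT1, whose 3′ UTR holds a match to the siKeap1 seed, had 51.6, 54.5 and 54.4 CPM in siFem1b/Keap1, against 138, 125 and 132 CPM in siFem1b (2.46-fold lower; log2 fold change -1.30, SE 0.0421, adjusted p = 4.15e-14). The lactate exporter gene Slc16a3 fell 1.76-fold, and the muscle phosphofructokinase gene Pfkm rose 1.35-fold. In cholesterol and fatty acid synthesis 11 of 38 rose and 9 fell. Over all genes tested 21.3% were higher and 21.8% lower.

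Secreted and matrix genes moved in both directions. Of 24 collagen chains 9 rose and 8 fell. The basement membrane chains Col4a1 and Col4a2 rose 1.5-fold and 1.97-fold, and Nid1, nidogen 1, had 1488, 1501 and 1489 CPM in siFem1b/Keap1, against 714, 713 and 713 CPM in siFem1b (2.09-fold; adjusted p = 8.29e-14). The fibrillar chain Col1a2 fell 1.45-fold, the decorin gene Dcn 2.17-fold and Islr 2.79-fold. Of 36 matrix proteins other than collagens 10 rose and 14 fell. Mmp10 had 13.6, 14.1 and 14.9 CPM in siFem1b/Keap1, against 2.73, 2.40 and 2.76 CPM in siFem1b (5.38-fold; adjusted p = 4.9e-13) and Mmp11, another secreted metalloproteinase, fell 2.52-fold. In all, 5 of the 15 metalloproteinase and inhibitor genes rose and 5 fell. Of 22 chemokine and cytokine genes 13 rose and 1 fell: Il1rn, the interleukin-1 receptor antagonist, rose 2.58-fold, Il1f9 5.58-fold and Gdf15 1.58-fold, while Cxcl12 fell 1.80-fold. The proliferin genes Prl2c2 and Prl2c3 rose 8.58-fold and 4.64-fold, with Prl2c2 at 215, 199 and 207 CPM in siFem1b/Keap1, against 23.9, 26.2 and 22.3 CPM in siFem1b; the family members are near-identical, so the split between them is uncertain.

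Signalling lists differed from each other in direction. Of 33 YAP and SRF targets 16 rose and 5 fell, with Ccn2 up 1.95-fold and Ccn1 up 1.35-fold. Of 31 AP-1 and immediate early genes 10 rose and 11 fell, with Egr1 down 1.82-fold and Dusp1 up 1.45-fold. In the Notch, BMP and TGF-beta list 16 of 31 fell and 8 rose. The Notch ligand gene Dll1 fell 2.33-fold, the modifier gene Lfng 1.69-fold and the BMP receptor gene Bmpr2 1.5-fold, and the activin subunit gene Inhba rose 1.63-fold.

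Markers of other cell types were counted as well. Of 13 epithelial markers 9 were tested, 7 rose and 0 fell. Their summed level was 150.8 to 169.4 CPM in siFem1b/Keap1, against 84.3 to 93.3 CPM in siFem1b, most of it Krt19 (116 CPM in siFem1b/Keap1 and 71.0 in siFem1b) and Krt14 (32.1 CPM in siFem1b/Keap1 and 12.9 in siFem1b). With at least 5 CPM required in 3 libraries 2 rose, and the defining marker Epcam had 5 counts over the siFem1b/Keap1 libraries and 1 over those of siFem1b. Of 10 macrophage and leukocyte markers 3 were tested and 2 rose, Cd68 and Cd14, with a summed level of 19.2 to 20.4 CPM in siFem1b/Keap1, against 11.1 to 12.2 CPM in siFem1b. Ptprc had 22 counts over the siFem1b/Keap1 libraries and 23 over those of siFem1b, and Adgre1 had 0 in both groups. Of the 10 adipocyte markers 5 were tested and 3 rose. They summed to 82.1 to 86.8 CPM in siFem1b/Keap1, against 56.4 to 59.4 CPM in siFem1b, with Adipoq at 4 counts in siFem1b/Keap1 and 0 in siFem1b, and Lep at 0 in both groups. Endothelial markers summed to 2.5 to 2.8 CPM in siFem1b/Keap1, against 1.6 to 1.9 CPM in siFem1b, with 1 of 5 higher and Cldn5 at 0 in both groups. Neuron and Schwann cell markers split, 2 higher and 2 lower of 5, with summed levels of 324.9 to 335.8 CPM in siFem1b/Keap1, against 321.8 to 329.2 CPM in siFem1b. Osteoblast and chondrocyte markers summed to 167.5 to 173.4 CPM in siFem1b/Keap1, against 171.5 to 189.7 CPM in siFem1b, and 0 of 4 passed the test. Their part in the changes above was not tested.

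To see whether the effect of the Keap1 siRNA differed with Fem1b depletion, siKeap1 was set against siCont, in cells with Fem1b. The 2 contrasts share no library. Their designs differ, since siCont received a non-targeting siRNA with its own guide and siFem1b the siRNA against Fem1b. In a difference between the contrasts, effects of the non-targeting guide or of unmatched dose cannot be told apart from Fem1b depletion. In siKeap1 against siCont 2682 genes (18.4%) were higher and 3475 (23.8%) lower. Genes called in the same direction in both contrasts numbered 4066, which is 64.7% of those called in Fem1b-depleted cells and 66.0% of those called in cells with Fem1b, and 135 were called in opposite directions. The interaction, the difference of the log2 fold changes, was positive for 890 genes (6.10%) and negative for 775 (5.31%). With the first run alone 306 were positive and 623 negative, so which direction held more genes changed. The counts also moved with single libraries: the positive count was 498 without replicate 1 and 571 without replicate 3 of siFem1b/Keap1, and 511 without replicate 3 of siFem1b, and the negative count was 1164 without replicate 2 of siFem1b. Of all 1665, 604 were called in the same direction in both contrasts, 411 of them with the smaller change in Fem1b-depleted cells. Another 413 were called in Fem1b-depleted cells alone and 503 in cells with Fem1b alone.

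**Figure D4:**
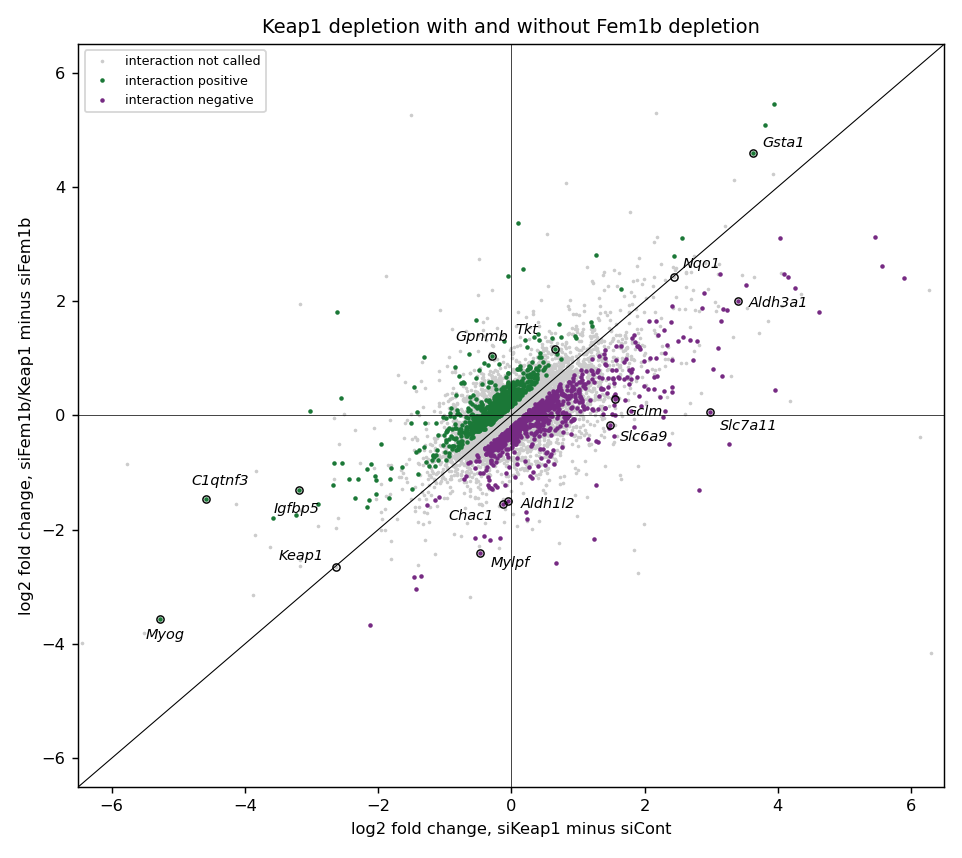
Log2 fold change of siFem1b/Keap1 minus siFem1b (vertical) against siKeap1 minus siCont (horizontal) for the genes tested, coloured by the interaction call at an adjusted p under 0.05; the line marks equal changes and 3 genes lie beyond the axes. Nqo1 and Keap1 lie on the line, Slc7a11, Gclm and Chac1 below it, and Igfbp5, C1qtnf3 and Gpnmb above it.

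The NRF2 targets differed among themselves. In cells with Fem1b 44 of 46 rose and 0 fell (median 1.21), and the interaction was negative for 23 and positive for 6. For Keap1 itself no difference was called (interaction -0.028, SE 0.102, adjusted p = 0.899), and Nqo1 had log2 fold changes of 2.42 in Fem1b-depleted cells and 2.44 in cells with Fem1b (interaction -0.015, SE 0.0602, adjusted p = 0.911). The levels of Nqo1 differed: 152.2 CPM in siFem1b/Keap1 and 28.42 in siFem1b, against 400.7 in siKeap1 and 74.03 in siCont. Summed over the list the level was 5705.7 to 5890.1 CPM in siFem1b and 10898.9 to 11701.3 CPM in siCont. Of these sums, Ftl1 made up 442.0 CPM in siFem1b and 3767 in siCont on average. Slc7a11 had 161, 158 and 143 CPM in siKeap1, against 19.9, 17.9 and 20.3 CPM in siCont, a log2 fold change of 2.99 there against 0.054 in Fem1b-depleted cells (interaction -2.93, SE 0.125, adjusted p = 3.68e-10). Gclm had 242, 241 and 249.5 CPM in siKeap1, against 82.5, 84.0 and 83.5 CPM in siCont, 1.55 there and 0.28 in Fem1b-depleted cells (interaction -1.27, SE 0.0643, adjusted p = 2.79e-10). The interactions of Aldh3a1 (-1.40), Blvrb (-1.19), Hmox1 (-0.91), Taldo1 (-0.64), Gsr (-0.56) and Txnrd1 (-0.52) were negative as well. Tkt (0.51), Gsta4 (0.36) and Gsta1 (0.97) had positive ones, all from lower levels in siFem1b than in siCont. Gsta1 averaged 40.05 CPM in siFem1b/Keap1 and 1.65 in siFem1b, against 447.8 in siKeap1 and 36.25 in siCont. How its reads were shared with Gsta2 is uncertain. Gsta4 averaged 155.8 and 22.49 CPM, against 552.1 and 102.2, in the same order of groups. Tkt averaged 222.3 and 99.28 CPM, against 196.7 and 124.8.

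The 8 smallest p-values among negative interactions included 5 genes outside this list. Slc6a9, a glycine transporter, had 75.3, 76.4 and 80.3 CPM in siKeap1, against 28.3, 28.4 and 26.9 CPM in siCont, while its values in Fem1b-depleted cells were 26.0, 25.4 and 25.5 CPM in siFem1b/Keap1, against 29.0, 28.8 and 28.7 CPM in siFem1b (interaction -1.64, SE 0.0625, adjusted p = 1.15e-11). Adh7, an alcohol dehydrogenase, Acss2, an acetyl-CoA synthetase, and Ass1, argininosuccinate synthase, rose in cells with Fem1b and had log2 fold changes of 0.0092, 0.42 and 0.019 in Fem1b-depleted cells (interactions -1.54, -1.88 and -1.36). Slc7a5 fell more in Fem1b-depleted cells (-0.98).

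ATF4 genes held the largest share of negative interactions, 31 of 50, with 0 positive. In cells with Fem1b 27 fell and 7 rose (median -0.14). Chac1 had 19.4, 19.8 and 20.8 CPM in siKeap1, against 20.5, 23.9 and 21.6 CPM in siCont, close to each other and between the levels of both Fem1b-depleted groups (interaction -1.41, SE 0.0889, adjusted p = 4.79e-09). In this it differed from the list as a whole, which was highest in siCont. The list summed to 7717.6 to 7920.9 CPM in siCont and 7430.6 to 7501.9 in siKeap1. In siFem1b it summed to 6067.1 to 6162.5 CPM, and in siFem1b/Keap1 to 4697.4 to 4743.7. The interactions of Aldh1l2 (-1.45), Pck2 (-0.73) and Mthfd2 (-0.55) were negative, as was that of Atf3 (-0.94). Bmpr2 fell in Fem1b-depleted cells and had a log2 fold change of -0.045 in cells with Fem1b (interaction -0.54).

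Lysosome genes went the other way: the interaction was positive for 26 of 59 and negative for 5, and in cells with Fem1b 15 rose and 16 fell. Gpnmb had 1.56, 1.90 and 1.58 CPM in siKeap1, against 2.01, 1.91 and 2.27 CPM in siCont (interaction 1.34, SE 0.132, adjusted p = 1.46e-06). Gpr137b, a lysosomal membrane protein and one of the 8 smallest p-values among positive interactions, had 201, 205 and 202 CPM in siFem1b/Keap1, against 109, 112 and 105 CPM in siFem1b, and 144, 140.4 and 141 CPM in siKeap1, against 164, 161 and 158 CPM in siCont (interaction 1.09, SE 0.050, adjusted p = 8.84e-11). The perilipin gene Plin2 rose 1.49-fold in Fem1b-depleted cells and had a log2 fold change of -0.048 in cells with Fem1b (interaction 0.62). Interferon-stimulated genes had 7 positive and 0 negative interactions of 41, with Stat2 (0.58) and Isg20 (0.73) among them, and Il1rn had one of 1.03.

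Several genes fell less in Fem1b-depleted cells. Igfbp5 had 134, 113 and 111 CPM in siKeap1, against 1073, 1073 and 1116 CPM in siCont, and its interaction was 1.88 (adjusted p = 4.4e-10). C1qtnf3, a secreted C1q-related protein, had 28.6, 30.4 and 24.7 CPM in siFem1b/Keap1, against 70.3, 81.6 and 80.5 CPM in siFem1b, and 0.405, 0.442 and 0.581 CPM in siKeap1, against 11.1, 11.7 and 12.1 CPM in siCont (interaction 3.12, SE 0.194, adjusted p = 7.46e-09). The interactions of Thbs2, thrombospondin 2 (0.72), Plau, urokinase (0.84), the chromatin gene Hmga2 (0.71) and the peptide hormone gene Apln (0.99) were positive too. Of 60 sarcomere genes 18 had a negative interaction and 2 a positive one. Mylpf (-1.93) and Myh3 (-1.37) fell more in Fem1b-depleted cells, whereas Myl1 (1.34), Tnnt1 (1.78) and, outside this list, Myog (1.70, adjusted p = 0.039) fell less. All of these 5 genes had lower levels in siCont, 3.16, 3.82 and 2.86 CPM for Myl1 and 1.54, 1.85 and 1.32 CPM for Myog, than in siFem1b, so their changes in cells with Fem1b rest on low levels. Summed over the whole sarcomere list the level was 3889.6 to 4143.2 CPM in siFem1b and 2905.4 to 2973.0 CPM in siCont.

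The siFem1b guide was present in both groups, and the siKeap1 guide in siFem1b/Keap1 alone. A 7-base match to the siKeap1 seed, GACACGG, was sought in the 3′ UTR of 1 transcript per gene. Genes with at least 1 match numbered 327, of which 157 (48.0%) were lower and 34 (10.4%) higher, and their log2 fold changes had a median of -0.17. Of 12303 genes without a match 22.6% were lower and 22.7% higher (median 0.006). Of the 14 genes with 2 or more matches 10 were lower and 0 higher. In cells with Fem1b 47.4% of genes with a match and 25.0% of those without were lower. UTRs with a match were longer, with a median of 2222 bases against 973 without. In UTRs of 100 to 500 bases 32.3% of genes with a match and 17.3% of those without were lower, and in UTRs of 501 to 1000 bases 35.9% with a match and 22% without. The shares were 53.8% with and 25.8% without for 1001 to 2000 bases, 54.4% with and 26.5% without for 2001 to 4000 bases, and 44.4% with and 25.1% without in longer UTRs. Of the genes named above, Slc2a1, Ung, Tmem158, Mmp11, Six4, Ccnd2, Gpr137b and Srxn1 hold 1 match each. A fit without all genes that hold a match gave 3018 higher and 3056 lower, and the part of the seed in the change of any single gene was not tested.

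**Figure D5:**
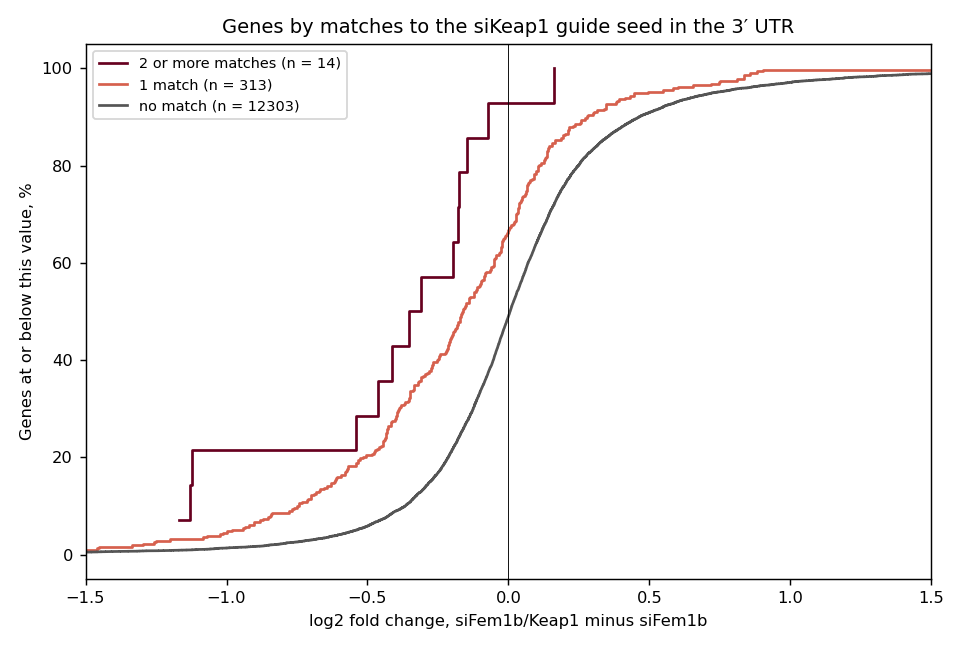
Cumulative share of genes (vertical, %) at or below each log2 fold change of siFem1b/Keap1 minus siFem1b (horizontal), for genes with 2 or more, 1 or no 3′ UTR match to the siKeap1 seed; values beyond ±1.5 are not drawn. The curves for genes with a match lie left of the curve without, with medians of -0.331, -0.162 and 0.006.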

How the data were processed

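RNA from 12 libraries of C2C12 myoblasts, 4 groups of 3, was sequenced in 2 runs each. The submitters' processing notes name kallisto 0.44.0, which assigns reads to transcripts, and mm10; other steps are not given in the sources used here. The authors deposited estimated counts and length-corrected abundances (TPM) for 118489 transcripts per run. The deposited TPM values served here to pick the transcript searched for seed matches.

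Transcripts were matched to GENCODE M21 (GRCm38; 98.59% matched, the rest holding 0.588% to 0.617% of counts). Expected counts were added up per gene and per library (both runs) and rounded to whole numbers, giving 31890336 to 42989261 per library. All 12 second runs matched their own first run, and between both runs the counts varied 2.34 to 2.87 times as much as counting alone gives. Genes were filtered with filterByExpr and scaled by TMM (factors 0.952 to 1.04). edgeR 4.0.16 (R 4.3.3) fitted a robust quasi-likelihood model, 1 coefficient for each of the 4 groups, with 2-sided tests, with Benjamini-Hochberg adjustment over 14584 genes and a threshold of 0.05. CPM are counts per 1000000 of scaled library size, and SE is the log2 fold change over the root of F. The filter keeps genes expressed in 1 group, so low genes can pass through the group where they are high. The script was tested on simulated data.

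Genes named were Keap1, Fem1b, Nfe2l2 and the NRF2 targets, the 12 largest rises and falls (protein-coding, a given symbol, at least 5 CPM on average, groups not overlapping), up to 5 members of each list with the smallest p, and the 8 smallest p of the interaction in each direction. Some genes chosen this way are not reported here. Genes printed with a sequence, singled out as not called, or given as marker counts were chosen after their values were seen. Members of the comparison and all 44 lists (8 of cell type markers) were chosen with earlier results of these data known. Seed matches were sought in 3′ UTRs of at least 100 bases. Alternatives used DESeq2 1.42.0 and limma 3.58.1 among others.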

Additional observations from a re-analysis of the deposited data

Results flagged for a closer look

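Each result here was picked out because the effect of the Keap1 siRNA differed between Fem1b-depleted cells and cells with Fem1b, tested as the interaction in edgeR's quasi-likelihood test (adjusted p under 0.05). A positive interaction was found for 890 genes and a negative one for 775. The interaction also holds any effect of the non-targeting siRNA in siCont, which cannot be told apart from that of Fem1b depletion. Groups of 3 libraries are too small to look for single outlying libraries.

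Among NRF2 targets the interaction on the log2 scale was -2.93 for Slc7a11, -1.40 for Aldh3a1, -1.27 for Gclm, -1.19 for Blvrb, -0.91 for Hmox1, -0.64 for Taldo1, -0.56 for Gsr and -0.52 for Txnrd1. It was 0.51 for Tkt, 0.36 for Gsta4 and 0.97 for Gsta1. Other metabolic genes had interactions of -1.88 (Acss2), -1.64 (Slc6a9), -1.54 (Adh7), -1.36 (Ass1) and -0.98 (Slc7a5).

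The stress and signalling genes had interactions of -1.45 (Aldh1l2), -1.41 (Chac1), -0.94 (Atf3), -0.73 (Pck2), -0.55 (Mthfd2) and -0.54 (Bmpr2). Those of muscle genes were -1.93 (Mylpf), -1.37 (Myh3), 1.34 (Myl1), 1.70 (Myog) and 1.78 (Tnnt1), and rest on low levels in cells with Fem1b. Over the siKeap1 libraries Myog had 4 counts and Tnnt1 8 (SE of the interaction 0.516 and 0.398). Positive values were 3.12 for C1qtnf3, 1.88 for Igfbp5, 1.34 for Gpnmb, 1.09 for Gpr137b, 1.03 for Il1rn, 0.99 for Apln, 0.84 for Plau, 0.73 for Isg20, 0.72 for Thbs2, 0.71 for Hmga2, 0.62 for Plin2 and 0.58 for Stat2. Some of these rest on low levels too: over the siKeap1 libraries C1qtnf3 had 52 counts, Gpnmb 183 and Il1rn 188.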

How the results depend on the processing

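The totals of genes higher and lower in siFem1b/Keap1 stayed within 1.5 times under every alternative run. With library totals alone 3466 were higher and 2803 lower, and the median over all genes shifted to 0.0296. With the DESeq2 Wald test 2829 were higher and 3175 lower, and with an adjusted p under 0.01 2260 and 2416. Interaction counts moved more. Against 890 positive and 775 negative, there were 306 positive and 623 negative with the first run alone, 527 and 918 with the second run alone, 431 and 449 at an adjusted p under 0.01, and 796 and 853 with DESeq2 size factors, so which direction held more genes changed; the cause was not tested. With single libraries left out, positive counts ran from 498 to 875 and negative counts from 600 to 1164, the total of higher genes from 2597 to 3208 and of lower genes from 2809 to 3259. Where a group had 2 libraries left, their spread was pooled with the other groups.

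The replicate number as a block gave 2982 higher, 3075 lower, and 785 positive and 694 negative interactions. Libraries with the same number correlated at -0.283, 0.417 and 0.283 in their deviations, and 2 of the 3 siFem1b/Keap1 libraries correlated best with another number. The main fit used no pairing. With 3 libraries a group this check cannot exclude one.

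Of the named genes none changed sign while called, and a few calls (among them Fech, Htatip2, Bst2, Fabp4, Sox9, Vwf, Cd36) changed under at least 1 alternative. Htatip2 (adjusted p = 0.00117) and Bst2 (0.000131) were not called with the first run alone, at log2 fold changes of 0.71 and 0.35; the cause was not tested. With 3 libraries a group, small differences of low genes could not be detected.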
